A study of Mus musculus with 30 samples.

Results

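Matrix metalloproteinases (Mmp) are secreted or membrane-bound enzymes that cut the proteins of the extracellular matrix, and the tissue inhibitors of metalloproteinases (Timp) bind and block them. The present results cover 9 of the 56941 genes counted in mHypoA-2/12 cells treated with cannabidiol (CBD). Of these genes, 6 encode enzymes (*Mmp2*, *Mmp3*, *Mmp13*, *Mmp14*, *Adamts1* and *Adamts7*) and 3 encode inhibitors (*Timp1*, *Timp2* and *Timp3*). The genes were taken from the count tables by their symbols. All 9 passed the filter on low counts at both treatment times.

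The mHypoA-2/12 line is a clone of neurons of the adult mouse hypothalamus that was immortalised with a viral large T antigen. The cells received CBD at 0.325, 0.75, 1.5 or 3 µM, or only its DMSO vehicle, for 6 h or 24 h. RNA was read from the 3′ end of transcripts (QuantSeq FWD), which gave 30 libraries in 10 groups of 3. The labels A1 to A3 mark vehicle, A4 to A6 mark 3 µM, A7 to A9 mark 1.5 µM, A10 to A12 mark 0.75 µM and A13 to A15 mark 0.325 µM at 6 h. The labels A16 to A18 mark 3 µM, A19 to A21 mark 1.5 µM, A22 to A24 mark 0.75 µM, A25 to A27 mark 0.325 µM and A28 to A30 mark vehicle at 24 h. All 10 groups share the same line, and nothing in the labels says whether the 3 libraries of a group came from separate cultures, so the p-values measure the spread between these libraries, which may be technical. A gene passed the threshold when its false discovery rate (FDR) was below 0.1.

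The enzymes are made as inactive precursors. Mmp3 (stromelysin-1) cuts proteoglycans and also activates other Mmp precursors, while Mmp13 (collagenase-3) cuts fibrillar collagen. Mmp14 is anchored in the cell membrane and, together with Timp2, activates the gelatinase Mmp2. Adamts1 and Adamts7 belong to a sister family of secreted enzymes that cut proteoglycans and cartilage matrix proteins. In the brain, these enzymes are known for remodelling the matrix around neurons and vessels.

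Each library held between 1839621 and 4420675 reads assigned to genes. Levels are given as CPM, the read count scaled to the depth of its library, with TMM normalisation. Since a 3′ protocol reads transcript ends, they were not divided by gene length and are compared only within a gene or as a change of a ratio. In bulk RNA, fewer expressing cells and less RNA per cell cannot be told apart. The share of reads outside annotated genes, meaning reads that the counting matched to no gene feature, was 17.7% to 22.2% over the libraries. Whether this share reflects RNA or library quality was not tested. Of 11 neuronal markers, only *Map2* and *Tubb3* passed the filter on low counts, and *Snap25*, *Syp*, *Npy*, *Agrp*, *Pomc* and *Rbfox3* each had a mean below 1 CPM. All 6 mesenchymal markers passed it, including *Col1a1* with a mean of 2063 CPM and *Vim* with a mean of 2209 CPM. Thus the neuronal label of the line was met by few of its markers.

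*Mmp3* (ENSMUSG00000043613, GRCm38 chr9:7445822-7455975) and *Mmp13* (ENSMUSG00000050578, chr9:7272514-7283331) are neighbours on the plus strand, with starts 173.3 kb apart. *Timp1* (ENSMUSG00000001131, chrX:20870166-20874735) lies within *Syn1* on the opposite strand and shares 0 exon bases with it. The 250 bases before the start of these 3 genes are shown because their changes are set against each other in the following comparisons. They come from RefSeq (GRCm38.p6), at chr9:7445572-7445821, chr9:7272264-7272513 and chrX:20869916-20870165, all on the plus strand. Capitals mark TGANTCA, the letters bound by AP-1 factors (N is any base, searched on both strands), and TATAAA, the letters of the TATA box (searched on the gene strand).
Mmp3: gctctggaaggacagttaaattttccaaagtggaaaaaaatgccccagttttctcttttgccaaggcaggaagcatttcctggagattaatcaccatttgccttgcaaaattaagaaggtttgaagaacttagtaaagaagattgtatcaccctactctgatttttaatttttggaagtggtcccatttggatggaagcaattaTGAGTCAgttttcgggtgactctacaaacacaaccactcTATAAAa
Mmp13: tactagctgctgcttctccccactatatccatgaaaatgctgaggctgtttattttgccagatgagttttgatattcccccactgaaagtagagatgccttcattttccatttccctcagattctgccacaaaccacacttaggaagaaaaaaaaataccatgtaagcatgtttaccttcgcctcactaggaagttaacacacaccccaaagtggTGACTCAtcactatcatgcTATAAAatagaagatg
Timp1: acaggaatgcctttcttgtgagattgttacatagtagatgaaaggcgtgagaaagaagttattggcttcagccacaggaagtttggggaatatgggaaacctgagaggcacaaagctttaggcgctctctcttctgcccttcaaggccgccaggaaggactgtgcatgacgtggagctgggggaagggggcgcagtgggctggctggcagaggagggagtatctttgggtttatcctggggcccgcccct

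*Mmp3* holds TGAGTCA at positions -46 to -40 from its start and TATAAA at -7 to -2. *Mmp13* holds TGACTCA at positions -35 to -29 and TATAAA at -16 to -11. *Timp1* holds neither in this window. Of the 7 members with a promoter in the RefSeq table, TGANTCA occurred in 2 (*Mmp3* and *Mmp13*) and TATAAA in 3 (the same 2 and *Adamts1*). Among all 32851 promoters of that table, 6.75% held TGANTCA and 7.59% held TATAAA in a window of the same length. AGGAAG, the letters bound by Ets factors (searched on both strands and not capitalised), occurred in 5 of the 7 (*Mmp3*, *Mmp13*, *Mmp14*, *Timp1* and *Timp3*), against 29.48% of all promoters. The 3 motifs did not overlap in any member. These matches are a description of letters and not of bound sites.

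After 6 h of treatment, *Mmp3* rose in CBD-treated cells at 3 of the 4 doses and *Timp1* rose over the 4 doses combined. *Mmp3* was at 459 CPM in A1, 519 CPM in A2 and 585 CPM in A3 of the vehicle. In the 12 CBD-treated libraries, *Mmp3* ranged from 711 to 1127 CPM with a median of 959.8 CPM. Every CBD-treated library thus lay above every vehicle library. The mean level was 877 ± 151 CPM (SD, n = 3) at 0.325 µM, 1057 ± 18.4 CPM (SD, n = 3) at 0.75 µM, 969 ± 196 CPM (SD, n = 3) at 1.5 µM and 812 ± 47.9 CPM (SD, n = 3) at 3 µM, against 521 ± 63.2 CPM (SD, n = 3) in vehicle.

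The log2 fold change of *Mmp3* over the 4 doses was 0.82 with a standard error of 0.12 (FDR = 0.00171, from edgeR's quasi-likelihood F-test over all genes). By dose, it was 0.74 at 0.325 µM (FDR = 0.0373), 1.02 at 0.75 µM (FDR = 0.00427), 0.89 at 1.5 µM (FDR = 0.0175) and 0.64 at 3 µM (FDR = 0.113). The call over the 4 doses was kept without any of the 15 libraries in turn. With only the compared groups in the fit, *Mmp3* passed at 0.75 µM but not at 0.325 µM (FDR = 0.575) or 1.5 µM (FDR = 0.291). These fits called 0% of all genes at 0.325 µM and at 1.5 µM, and 0.0178% at 0.75 µM. At 0.325 µM the call was also lost without A1, A2, A14 or A15 (FDR up to 0.207), and at 1.5 µM without A2, A7 or A9 (FDR up to 0.164). At 3 µM it was gained without A3 (FDR = 0.0183), A13 (FDR = 0.0734) or A14 (FDR = 0.0752).

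*Mmp13* was at 98.4 CPM in A1, 100.3 CPM in A2 and 194 CPM in A3 of the vehicle. A3 was also the vehicle library with the lowest share of reads outside genes (17.9%, against 21.4% in A1 and 20.8% in A2). It held 3574833 reads on genes, against 1839621 in A1 and 1919498 in A2, the fewest of all libraries. In the 12 CBD-treated libraries, *Mmp13* ranged from 145 to 302 CPM with a median of 191 CPM. The groups overlapped, since 6 of the 12 lay below A3, although all 12 lay above A1 and A2. *Mmp13* rose at 0.75 µM (log2 fold change 0.95, standard error 0.20, FDR = 0.0921). Its log2 fold change was 0.32 at 0.325 µM (FDR = 0.686), 0.38 at 1.5 µM (FDR = 0.673), 0.71 at 3 µM (FDR = 0.287) and 0.59 over the 4 doses (FDR = 0.138).

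The value of *Mmp13* over the 4 doses depended on A3. Without that library, its log2 fold change was 1.01 (FDR = 0.000238), and it also passed at 0.325 µM (FDR = 0.0434), 1.5 µM (FDR = 0.0311) and 3 µM (FDR = 0.00112). Over the 4 doses, *Mmp13* also passed without the filter on low counts (FDR = 0.00188) and with DESeq2 (FDR = 0.065). The call at 0.75 µM was lost with only the compared groups in the fit (FDR = 0.372), where 0.0178% of all genes passed. It was also lost without any of A1, A2, A4, A5, A6, A8, A10, A11, A12 or A15 in turn (FDR up to 0.583). The part of the share of reads outside genes, or of depth, in the level of A3 was not tested.

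*Adamts7* (ENSMUSG00000032363, chromosome 9) had few reads, with 9 to 22 per vehicle library and 19 to 69 per CBD-treated library at 6 h. It was at 7.23 CPM in A1, 4.80 CPM in A2 and 6.11 CPM in A3, and at 7.87 to 21.1 CPM with a median of 12.6 CPM in the 12 CBD-treated libraries. All 12 lay above all 3 vehicle libraries. Its log2 fold change over the 4 doses was 1.07 (standard error 0.29, FDR = 0.126) and did not pass the threshold. It passed without the filter on low counts (1.08, FDR = 0.0846), with DESeq2 (FDR = 0.0967), with a covariate for reads outside genes (FDR = 0.0587) and without A14 (FDR = 0.0905). At 3 µM its log2 fold change was 1.51 (FDR = 0.104), and it passed without the filter (1.52, FDR = 0.0246), with DESeq2 (FDR = 0.0376), with the covariate (FDR = 0.0369) and without A3, A12, A13 or A14 in turn (FDR from 0.067 to 0.0954). *Adamts7* shares 122 exon bases with *Tbc1d2b* on the opposite strand, which had a mean of 30.1 CPM, and since the strand setting of the counting is not given in the sources used here, reads from the shared bases could not be assigned.

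The other enzymes did not pass the threshold at 6 h. *Adamts1* (ENSMUSG00000022893, chromosome 16) was at 66.7 to 90.6 CPM in vehicle and at 78.2 to 138 CPM in CBD-treated cells, and 8 of 12 treated libraries lay above all vehicle libraries. Its log2 fold change over the 4 doses was 0.44 (standard error 0.17, FDR = 0.324). *Mmp14* (ENSMUSG00000000957, chromosome 14) was at 208 to 218 CPM in vehicle and at 214 to 342 CPM in CBD-treated cells, with 11 of 12 above all vehicle libraries and a log2 fold change of 0.24 (95% interval 0.01 to 0.47, FDR = 0.502). *Mmp2* (ENSMUSG00000031740, chromosome 8) was read 8 to 27 times per library, so its log2 fold change of 0.32 had a wide 95% interval of −0.45 to 1.08.

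Among the inhibitors, *Timp1* was at 708 CPM in A1, 738 CPM in A2 and 821 CPM in A3 of the vehicle at 6 h. In the 12 CBD-treated libraries it ranged from 914 to 1355 CPM with a median of 1088 CPM, and every treated library lay above every vehicle library. The mean was 1023.5 ± 113 CPM (SD, n = 3) at 0.325 µM, 1107 ± 109.9 CPM (SD, n = 3) at 0.75 µM, 1165 ± 166 CPM (SD, n = 3) at 1.5 µM and 1092 ± 78.0 CPM (SD, n = 3) at 3 µM, against 756 ± 58.8 CPM (SD, n = 3) in vehicle. *Timp1* rose over the 4 doses (log2 fold change 0.53, standard error 0.11, FDR = 0.0187) and at 1.5 µM (log2 fold change 0.62, FDR = 0.0795). At the other doses, its log2 fold change was 0.43 at 0.325 µM (FDR = 0.228), 0.55 at 0.75 µM (FDR = 0.159) and 0.53 at 3 µM (FDR = 0.152). The call over the 4 doses was lost without A1 (FDR = 0.109) or A2 (FDR = 0.115). The call at 1.5 µM was lost with only the compared groups in the fit (FDR = 0.509), where 0% of all genes passed. It was also lost without any of 9 libraries in turn (A1, A2, A4 to A9 and A11, FDR up to 0.348). *Timp1* gained a call at 0.75 µM without A3 (FDR = 0.0286) and at 3 µM without A3 (FDR = 0.0371) or A14 (FDR = 0.0896).

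*Timp2* and *Timp3* did not pass the threshold. *Timp2* (ENSMUSG00000017466, chromosome 11), which also takes part in the activation of Mmp2, was at 2481 to 3450.4 CPM in vehicle and at 2628 to 3484 CPM in CBD-treated cells. Its log2 fold change over the 4 doses was 0.02 with a 95% interval of −0.18 to 0.22. *Timp3* (ENSMUSG00000020044, chromosome 10), which stays bound to the matrix and also blocks Adamts enzymes, was at 80.1 to 133 CPM in vehicle and at 75.8 to 120.2 CPM in CBD-treated cells. Its log2 fold change was −0.14 with a 95% interval of −0.41 to 0.12. *Timp3* lies within *Syn3* on the opposite strand and shares 1733 exon bases with it, but *Syn3* had a mean of only 1.63 CPM.

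**Figure D1:**
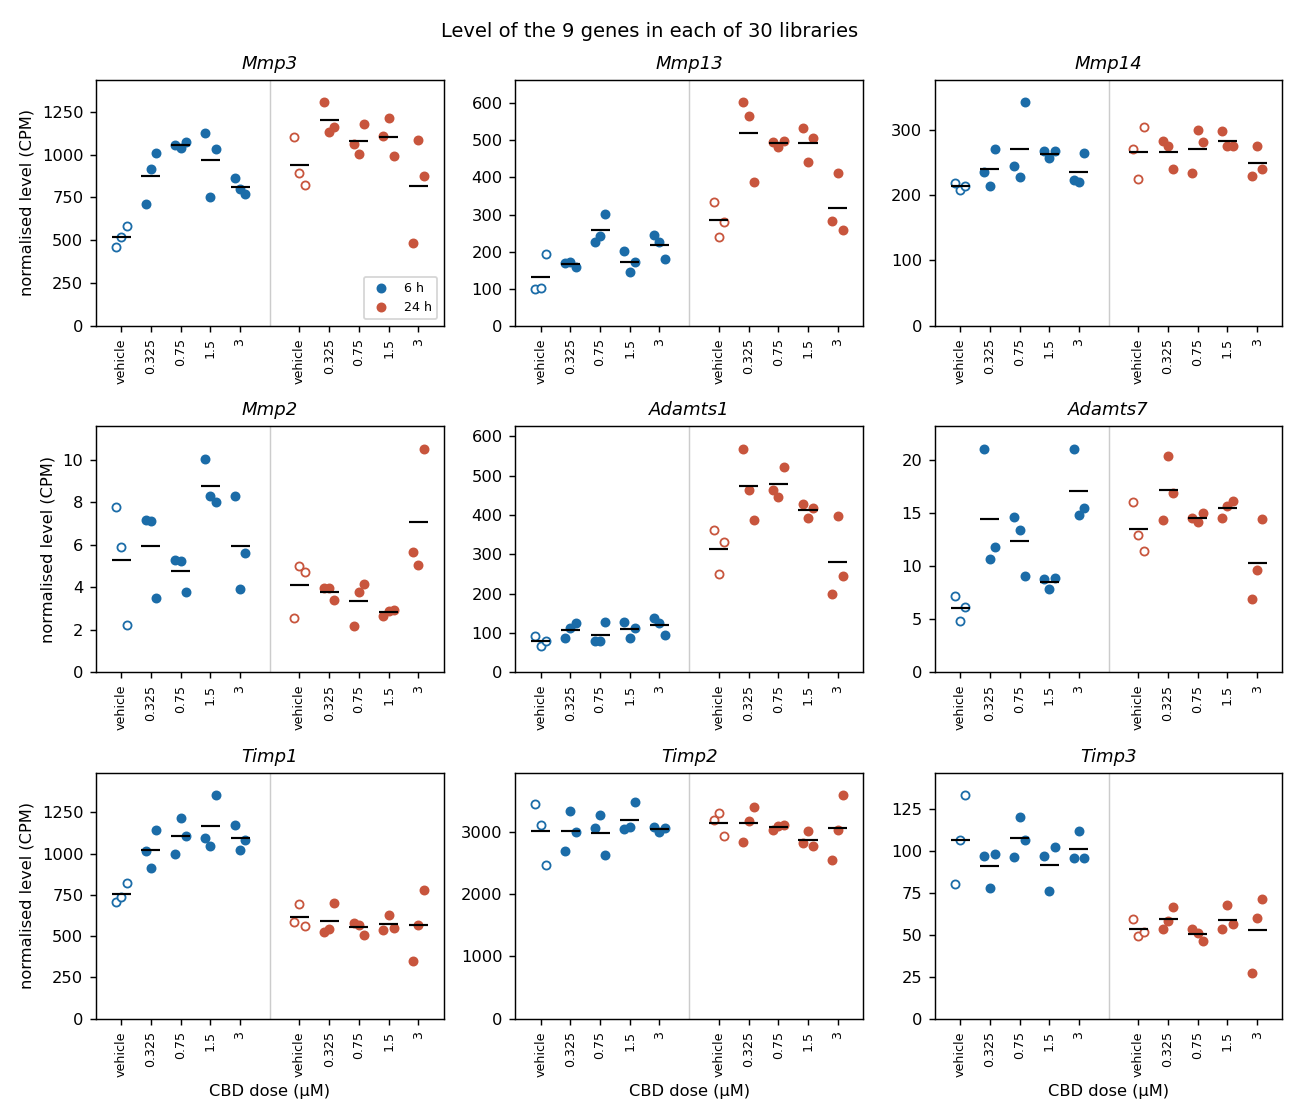
Level of each of the 9 genes (CPM, vertical axes starting at 0) against the dose of CBD (µM) in the libraries of 6 h (blue) and 24 h (red), with open points for vehicle, filled points for CBD and black lines for means of 3 libraries. At 6 h, the 12 treated libraries lie above the 3 vehicle libraries for *Mmp3*, *Adamts7* and *Timp1*, and at 24 h *Mmp13* lies between 389 and 603 CPM at the 3 lower doses against 239 to 333 CPM in vehicle.

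Counted over the group at 6 h, 1 of 9 members passed the threshold at 0.325 µM (0.200% of all genes tested, 0.0916% higher), 2 at 0.75 µM (0.0749% of all genes, 0.0333% higher), 2 at 1.5 µM (0.0999% of all genes, 0.0583% higher) and 2 over the 4 doses together (0.749% of all genes, 0.241% higher). All of these members were higher in CBD-treated cells. At 3 µM, 0 members passed with edgeR (0.05% of all genes, 0.00833% higher), where 5 had an unadjusted p under 0.05 (7.26% of all genes) and DESeq2 called 3 (0.473% of the genes it tested). The median log2 fold change over the 4 doses was 0.44 for the 9 members, 0.52 for the 6 enzymes, 0.02 for the 3 inhibitors and −0.02 for all genes. The 3 genes with all 12 CBD-treated libraries above all vehicle libraries (*Mmp3*, *Adamts7* and *Timp1*) compare with 0.733% of all genes tested, and 0 members had all 12 below, against 0.724% of all genes.

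No order of the doses could be read at 6 h. A test of any difference among the 4 doses called 0 members with edgeR (0% of all genes), where 2 had an unadjusted p under 0.05 (3.76% of all genes) and DESeq2 called 0. Likewise, 3 µM against the 3 lower doses called 0 members (0% of all genes), with 1 at an unadjusted p under 0.05 (5.19% of all genes) and 0 by DESeq2. The summed level of astrocyte markers was 19.2 to 45.4 CPM in vehicle and 15.9 to 39.0 CPM in CBD-treated cells at 6 h, of which *Slc1a2* alone of 4 markers passed the filter, with *Gfap* at a mean of 0.0277 CPM and *Aqp4* at 0. The summed level of 5 microglia and macrophage markers was 23.05 to 54.5 CPM in vehicle and 18.7 to 52.5 CPM in CBD-treated cells, with *Cx3cr1* and *Csf1r* passing the filter and *Adgre1* at 0. The part of these markers in the changes at 6 h was not tested.

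After 24 h, *Mmp13* was the member that rose with CBD, at each of the 3 lower doses and over the 4 doses together. In vehicle, *Mmp13* was at 333 CPM in A28, 239 CPM in A29 and 279.7 CPM in A30. At 0.325 µM it was at 603 CPM in A25, 565 CPM in A26 and 389 CPM in A27. At 0.75 µM it was at 496 CPM in A22, 481 CPM in A23 and 499 CPM in A24. All of these libraries lay above all vehicle libraries. For no single dose was the share of all genes separated in this way counted.

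At 1.5 µM, *Mmp13* was at 533 CPM in A19, 441 CPM in A20 and 506 CPM in A21, again above every vehicle library. At 3 µM it was at 284 CPM in A16, 412 CPM in A17 and 258 CPM in A18, and only A17 lay above all vehicle libraries. The log2 fold change was 0.86 (FDR = 0.0281) at 0.325 µM, 0.78 (FDR = 0.0704) at 0.75 µM, 0.79 (FDR = 0.0783) at 1.5 µM and 0.17 (95% interval −0.15 to 0.48, FDR = 0.777) at 3 µM. Over the 4 doses it was 0.65 with a standard error of 0.13 (FDR = 0.0443).

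These calls leaned on few libraries. Over the 4 doses, the call was lost without A29 (log2 fold change 0.54, FDR = 0.413) or A30 (0.64, FDR = 0.370). At 0.325 µM it was lost without A25, A26, A29 or A30 (FDR up to 0.350). It was lost at 0.75 µM without A19, A22, A23, A24, A26, A29 or A30 (FDR up to 0.327) and at 1.5 µM without A19, A20, A21, A22, A23, A24, A26, A29 or A30 (FDR up to 0.662). The log2 fold change stayed between 0.67 and 0.87 in the fits at the latter 2 doses that lost the call.

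The other members did not pass the threshold against vehicle at 24 h. *Mmp3* was at 821 to 1103 CPM in vehicle and at 483 to 1306.5 CPM in CBD-treated cells, and its log2 fold change over the 4 doses was 0.14 (95% interval −0.13 to 0.40, FDR = 0.920). *Adamts1* was at 361 CPM in A28, 249.97 CPM in A29 and 330.2 CPM in A30 of the vehicle, and at 388 to 569 CPM in the 9 libraries of the lower doses, which all lay above vehicle. The share of all genes with these 9 libraries above vehicle was not counted. The log2 fold change of *Adamts1* was 0.58 at 0.325 µM (FDR = 0.348), 0.59 at 0.75 µM (FDR = 0.331), 0.39 at 1.5 µM (FDR = 0.641) and −0.16 at 3 µM (FDR = 0.806). Without the filter on low counts it passed at 0.325 µM (FDR = 0.00219) and 0.75 µM (FDR = 0.00257). With only the compared groups in the fit, *Adamts1* passed at 0.75 µM (FDR = 0.0107), where 0.903% of all genes passed. It also passed at 0.325 µM without A17 (FDR = 0.097) and at 0.75 µM without A16 (FDR = 0.0803) or A17 (FDR = 0.0812). *Timp1* was at 561 to 693 CPM in vehicle and at 351 to 779.9 CPM in CBD-treated cells, with a log2 fold change of −0.12 (95% interval −0.38 to 0.15). Over the 4 doses, the log2 fold change was −0.06 for *Timp2*, 0.03 for *Timp3*, 0.00 for *Mmp14*, −0.01 for *Mmp2* and 0.05 for *Adamts7*, each with an FDR of 0.961 or more.

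**Figure D2:**
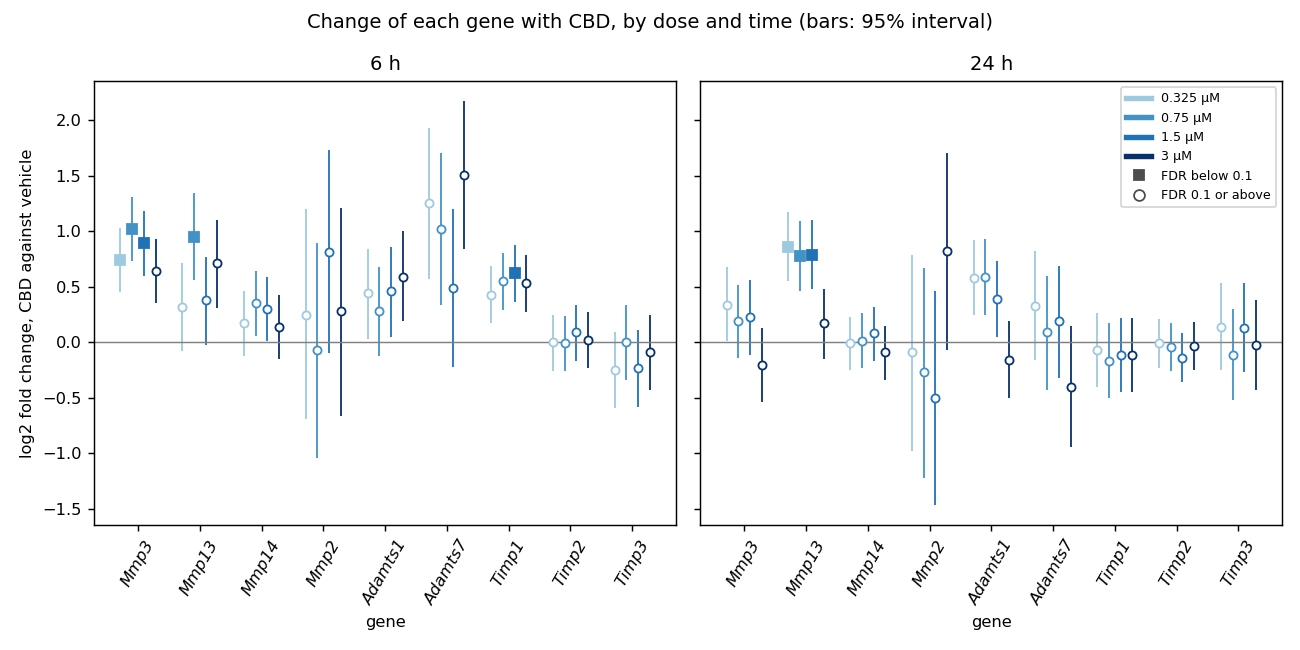
Log2 fold change of CBD against vehicle for each of the 9 genes at 4 doses, after 6 h (left) and 24 h (right), with bars for the approximate 95% interval and squares for changes with an FDR below 0.1. At 6 h the squares belong to *Mmp3* (0.74, 1.02 and 0.89), *Mmp13* (0.95) and *Timp1* (0.62), and at 24 h to *Mmp13* alone (0.86, 0.78 and 0.79).

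In counts, 1 of 9 members passed the threshold at 24 h at 0.325 µM (0.0660% of all genes, 0.0495% higher), at 0.75 µM (0.0825% of all genes), at 1.5 µM (0.0413% of all genes) and over the 4 doses (0.107% of all genes, 0.0743% higher), each time *Mmp13*. At 3 µM, 0 members passed with edgeR (0.00825% of all genes), 0 had an unadjusted p under 0.05 (9.16% of all genes) and DESeq2 called 0 (0.121% of the genes it tested). No member had all 12 CBD-treated libraries above all vehicle libraries at 24 h, which 0.338% of all genes had, and none had all 12 below, which 0.272% of all genes had. The summed level of the 6 mesenchymal markers was 6252 to 7138.5 CPM in vehicle and 5924 to 7047 CPM in CBD-treated cells at 24 h.

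The highest dose differed from the 3 lower doses at 24 h. *Mmp13* fell by 0.64 on the log2 scale (standard error 0.13, FDR = 0.00771), from 502 ± 63.5 CPM (SD, n = 9) at the lower doses to 318 ± 82.4 CPM (SD, n = 3) at 3 µM. *Adamts1* fell by 0.68 (standard error 0.15, FDR = 0.0111), with 199.7 CPM in A16, 398 CPM in A17 and 245 CPM in A18 at 3 µM. *Mmp3* fell by 0.46 (standard error 0.14, FDR = 0.0551), with 483 CPM in A16, 1083 CPM in A17 and 876 CPM in A18. A17 thus lay within the range of the lower doses for all 3 genes, and A16 and A18 lay below it.

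*Mmp2* rose at 3 µM against the lower doses (log2 fold change 1.11, standard error 0.37, FDR = 0.0688), with 5.66 CPM in A16, 5.04 CPM in A17 and 10.5 CPM in A18 against 2.18 to 4.14 CPM. These levels rested on 14, 12 and 24 reads at 3 µM and on 6 to 18 reads per library at the lower doses. Thus 4 of 9 members passed, 3 lower and 1 higher, where 10.5% of all genes tested passed, with 6.36% of all genes higher. The inhibitors showed log2 differences of 0.00 (*Timp1*), 0.03 (*Timp2*) and −0.08 (*Timp3*), and *Timp1* in A16 was the lowest of all libraries of 24 h at 351 CPM. Without A16, the calls of *Mmp3* (−0.20, FDR = 0.475), *Adamts1* (−0.49, FDR = 0.139) and *Mmp2* (1.23, FDR = 0.210) were lost, and that of *Mmp13* was kept (−0.58, FDR = 0.0985). *Mmp2* also lost its call without the filter on low counts (FDR = 0.121) and without A18 (0.70, FDR = 0.443), A19 (FDR = 0.107) or A22 (FDR = 0.113), and *Mmp3* without A18 (FDR = 0.113). *Adamts7* had a log2 difference of −0.60 (FDR = 0.129) and passed without A18 (FDR = 0.0866).

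A test of any difference among the 4 doses at 24 h called *Mmp13* and *Adamts1*, 2 of 9 members against 1.93% of all genes. Both calls were lost without A16, A18, A19, A22, A23, A24, A25 or A26 in turn (FDR up to 0.359), and *Mmp3* passed without A17 (FDR = 0.0125). Among the 3 lower doses alone, a test chosen after seeing the data called 0 members (0.00825% of all genes), so that the order of these doses could not be told.

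The share of reads outside genes moved with these groups at 24 h. It was 21.4% ± 0.714 (SD, n = 3) in vehicle and 21.4% ± 0.487 (SD, n = 3) at 3 µM, against 19.4% ± 0.266 (SD, n = 3) at 0.325 µM, 19.4% ± 0.608 (SD, n = 3) at 0.75 µM and 19.7% ± 0.560 (SD, n = 3) at 1.5 µM. No library of the lower doses reached the lowest vehicle library (20.4% against 20.9%), so the share and the lower doses cannot be told apart against vehicle. With the share as a covariate, the log2 fold change of *Mmp13* over the 4 doses was 0.69 with an FDR of 1, and 0 members passed in any comparison of CBD-treated cells at 24 h. That fit called 0% of all genes at 0.325, 0.75 and 1.5 µM and over the 4 doses. It called 0.00825% of all genes at 3 µM, 0.00825% among the doses and 0.248% at 3 µM against the lower doses. At 3 µM against the lower doses, the same fit gave −0.71 for *Mmp13* (FDR = 0.275), −0.80 for *Adamts1* (FDR = 0.270), −0.47 for *Mmp3* (FDR = 0.537) and 0.94 for *Mmp2* (FDR = 0.661). At 6 h, that fit called *Mmp3*, *Mmp13*, *Adamts7* and *Timp1* over the 4 doses, where 2.74% of all genes passed.

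**Figure D3:**
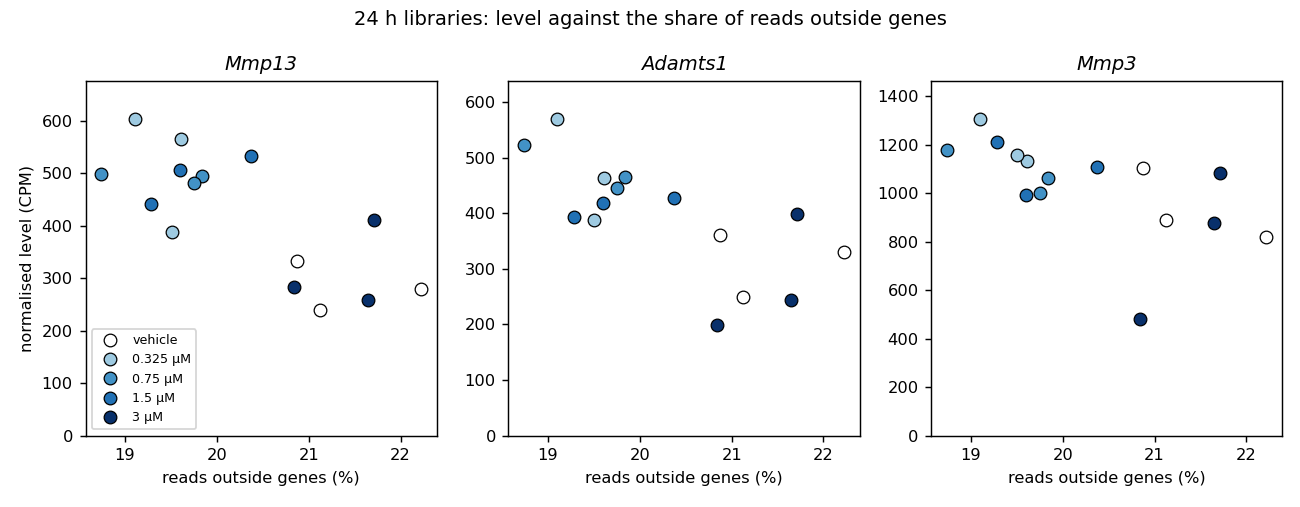
Level of *Mmp13*, *Adamts1* and *Mmp3* (CPM, vertical axes starting at 0) against the share of reads outside annotated genes (%) in the 15 libraries of 24 h, coloured by dose. The vehicle and 3 µM libraries lie between 20.8% and 22.2%, and the 9 libraries of the lower doses lie between 18.7% and 20.4%.

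*Mmp3* and *Mmp13* were also compared as a ratio within each library, on CPM with a pseudocount of 0.5. At 6 h, the log2 ratio of *Mmp3* to *Mmp13* was 2.21 in A1, 2.37 in A2 and 1.59 in A3 of the vehicle, and 1.82 to 2.66 in CBD-treated libraries. The mean was 2.21 ± 0.30 (SD, n = 12) with CBD and 2.06 ± 0.41 (SD, n = 3) with vehicle, a difference of 0.15 (exact two-sided permutation p = 0.495). Without A3, the difference was −0.09.

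At 24 h, the ratio was 1.73 in A28, 1.90 in A29 and 1.55 in A30 of the vehicle. In the CBD-treated libraries it ranged from 0.77 to 1.76 with a median of 1.11. The mean was 1.21 ± 0.29 (SD, n = 12) against 1.72 ± 0.17 (SD, n = 3), a difference of −0.52 (exact two-sided permutation p = 0.011, 5 of 455 splits, smallest possible p 0.0022, Benjamini-Hochberg adjusted p = 0.022 over the 2 times). In the CBD-treated libraries of 24 h, *Mmp13* was thus higher relative to *Mmp3*. The count was 3.32 ± 0.396 (SD, n = 3) reads of *Mmp3* per read of *Mmp13* in vehicle and 2.36 ± 0.490 (SD, n = 12) with CBD. The difference was −0.43 without A29 (exact permutation p = 0.0769), the library whose omission lost it. At 3 µM, where the share of reads outside genes was near that of vehicle, the ratio was 0.77 in A16, 1.39 in A17 and 1.76 in A18. A18 thus lay within the vehicle range. The share set the 3 lower doses apart from vehicle, and its part in the ratio was not tested. Whether the difference of the ratio itself changed between 6 h and 24 h was not tested.

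**Figure D4:**
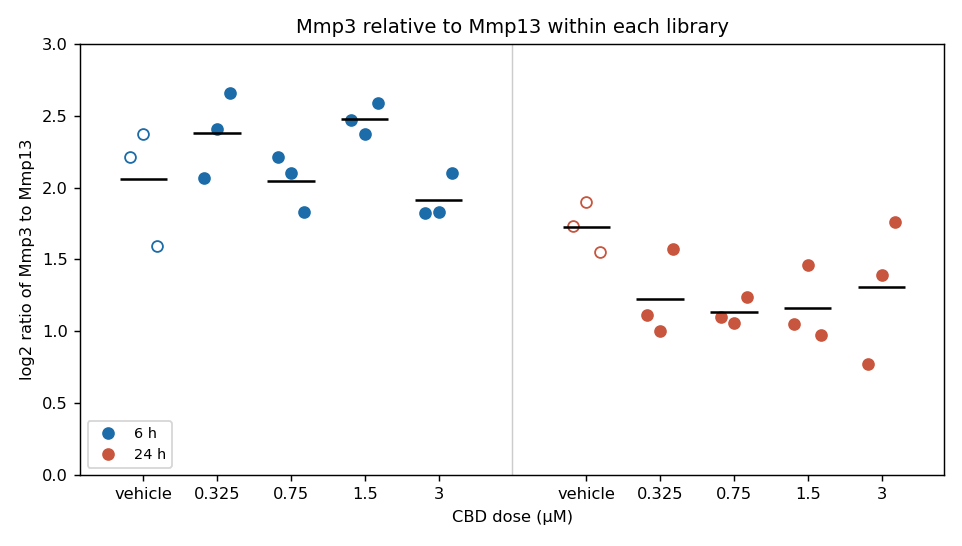
Log2 ratio of *Mmp3* to *Mmp13* in each library against the dose of CBD (µM), after 6 h (blue) and 24 h (red), with open points for vehicle, filled points for CBD and black lines for means of 3 libraries. At 24 h the vehicle libraries lie between 1.55 and 1.90 and the means of the doses between 1.13 and 1.31.

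The change between vehicle and CBD-treated cells was also set between the times. The log2 fold change over the 4 doses at 24 h minus that at 6 h was −0.68 for *Mmp3* (FDR = 0.243), −0.64 for *Timp1* (FDR = 0.241) and −1.01 for *Adamts7* (FDR = 0.407). For *Mmp13*, the difference was 0.07 with a 95% interval of −0.36 to 0.49. With edgeR, 0 of 9 members passed (0.235% of all genes, 0.125% higher), 3 had an unadjusted p under 0.05 (6.52% of all genes) and DESeq2 called 0 (0.415% of the genes it tested). The call was gained for both *Mmp3* (FDR = 0.00112) and *Timp1* (FDR = 0.00325) without the filter on low counts. It was also gained for *Mmp3* without A16 (FDR = 0.0920) or A17 (FDR = 0.0741) and for *Timp1* without A16 (FDR = 0.0977) or A18 (FDR = 0.0738).

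In vehicle-treated cells, the 2 times differed for most members. From 6 h to 24 h, 6 of 9 members passed the threshold, 5 higher and 1 lower, where 26.7% of all genes tested passed and 12.5% were higher. *Adamts1* rose 3.98-fold (standard error 0.21 on the log2 scale, FDR = 3.43e-08), from 78.9 ± 12.0 CPM (SD, n = 3) to 314 ± 57.4 CPM (SD, n = 3). On the log2 scale, *Adamts7* rose by 1.16 (FDR = 0.00718), *Mmp13* by 1.09 (FDR = 0.000145), *Mmp3* by 0.85 (FDR = 0.000679) and *Mmp14* by 0.32 (FDR = 0.0985). *Timp3* fell by 1 on the log2 scale (standard error 0.20, FDR = 0.000481), from 107 ± 26.6 CPM (SD, n = 3) to 53.5 ± 5.08 CPM (SD, n = 3).

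For each of these 6 genes, which had been picked by this same comparison, the vehicle libraries of the 2 times did not overlap. The share of all genes without such overlap was not counted. *Mmp14* lost its call without A1, A2, A3, A28 or A30 in turn (FDR up to 0.339). *Timp1* (−0.30, FDR = 0.202), *Timp2* (0.06, FDR = 0.757) and *Mmp2* (−0.31, FDR = 0.692) did not pass. The time of harvest and the cultures used for it cannot be told apart.

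Enzymes and inhibitors were then summed. At 6 h the summed level of the 6 enzymes was 881 to 1080.4 CPM in vehicle and 1229 to 1861 CPM in CBD-treated libraries, which did not overlap. The summed level of the 3 Timps was 3435 to 4238 CPM in vehicle and 3821 to 4941 CPM in CBD-treated libraries, which did. As a ratio, 25.02 ± 5.66 (SD, n = 3) enzyme reads were counted per 100 Timp reads in vehicle and 35.6 ± 5.21 (SD, n = 12) in CBD-treated cells. At 24 h the ratio was 47.8 ± 7.24 (SD, n = 3) in vehicle, 66.2 ± 14.4 (SD, n = 3) at 0.325 µM, 63.4 ± 4.21 (SD, n = 3) at 0.75 µM, 66.0 ± 3.45 (SD, n = 3) at 1.5 µM and 45.8 ± 12.0 (SD, n = 3) at 3 µM. The sums weight each gene by its reads and were not tested. At 6 h, *Mmp3* made up 521 of 955 CPM of the mean enzyme sum in vehicle and 929 of 1511 CPM in CBD-treated cells. The separation of the enzyme sum is thus not independent of that of *Mmp3*.

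Within 500 kb of the *Mmp3* start, 22 annotated genes were counted, 10 of them Mmp genes. Of the 10 genes with a mean of at least 1 CPM, *Mmp10* (stromelysin-2), whose start lies 56.5 kb from that of *Mmp3*, was at 7.47 to 9.996 CPM in vehicle and at 11.6 to 32.3 CPM in CBD-treated cells at 6 h. These groups did not overlap, as for 0.733% of all genes tested, and its vehicle levels rested on 17, 14 and 36 reads. The log2 fold change of *Mmp10* of 1.15 (standard error 0.32) had an FDR of 0.126. *Birc2*, an inhibitor of apoptosis 391.2 kb away, had a log2 fold change of 1.01 (FDR = 0.161) at 6 h. The values were 0.17 for *Dync2h1*, 0.00 for *Dcun1d5*, 0.22 for *Mmp8*, 0.06 for *Tmem123* and 0.22 for *Birc3*, each with an FDR of 0.828 or more, and *Mmp12* had too few reads to be tested. At 24 h, *Mmp13* passed and the log2 fold change was 0.04 for *Mmp10* and −0.18 for *Birc2*, with an FDR of 0.913 or more.

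**Figure D5:**
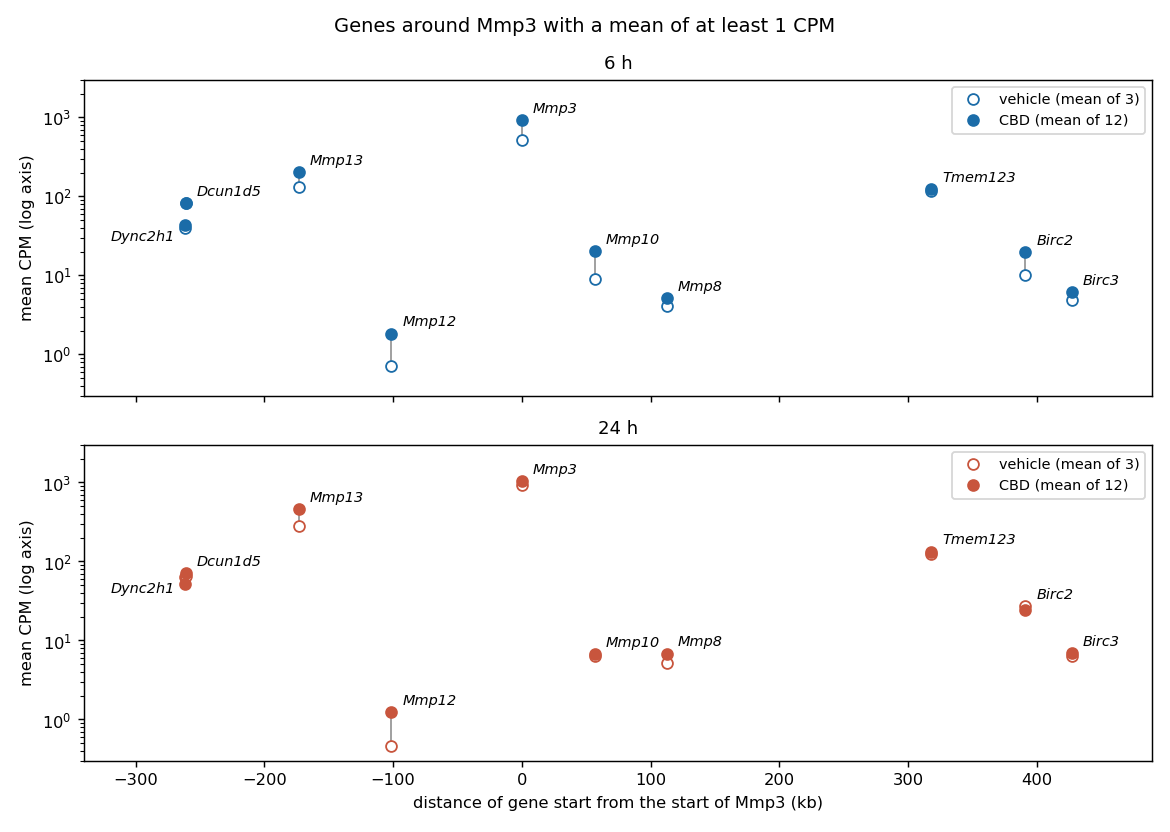
Mean level (CPM, log axis) of the 10 genes with at least 1 CPM against the distance of their start from the start of *Mmp3* (kb), after 6 h and 24 h, with open points for the mean of 3 vehicle libraries and filled points for the mean of 12 CBD-treated libraries. At 6 h the means of vehicle and CBD are 131 and 203 CPM for *Mmp13*, 521 and 929 CPM for *Mmp3* and 8.97 and 20.2 CPM for *Mmp10*.

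Other genes of the pathway were counted by list for the 4 doses together. Of 19 other Mmp genes, 6 were tested at 6 h and 0 passed with edgeR, while 3 had an unadjusted p under 0.05 and DESeq2 called 1 (*Mmp10*). Of all genes in this comparison, 0.749% passed with edgeR, 10.3% had an unadjusted p under 0.05 and DESeq2 called 1.1% of the genes it tested. The median log2 fold change of the 6 was 0.65, against −0.02 for all genes. Of 22 other Adamts and Adamtsl genes, 11 were tested and 0 passed with edgeR or DESeq2, with 2 at an unadjusted p under 0.05 and a median of 0.16. *Mmp11* had a log2 fold change of 0.52 (FDR = 0.428), *Mmp16* of 0.20 (FDR = 0.874), *Adamts2*, which trims procollagen, of 0.39 (FDR = 0.428) and *Adamts10* of 0.28 (FDR = 0.633). Of 12 matrix substrates, 8 were tested and 0 passed with edgeR or DESeq2, with 0 at an unadjusted p under 0.05, and the collagens *Col1a1* and *Col1a2* were at 0.00 and 0.09.

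At 24 h, 1 gene of these lists passed over the 4 doses. *Adam9*, a membrane enzyme that sheds cell surface proteins, fell by 1.42 on the log2 scale (standard error 0.31, FDR = 0.0848), from 9.29 ± 3.32 CPM (SD, n = 3) in vehicle to 2.69 to 3.29 CPM as means of the 3 lower doses and 5.29 ± 1.63 CPM (SD, n = 3) at 3 µM. *Adam9* was 1 of 6 Adam genes tested and had 480 reads over the 30 libraries. Its vehicle libraries were at 7.29, 7.45 and 13.1 CPM. DESeq2 did not call it, nor did the fit with a covariate for reads outside genes, which called 0% of all genes. Its values with each library left out are not reported here. Of all genes at 24 h, 0.107% passed with edgeR, 6.73% had an unadjusted p under 0.05 and DESeq2 called 0.379% of the genes it tested. Of 6 other Mmp genes tested, 0 passed with edgeR or DESeq2, with 1 at an unadjusted p under 0.05. Of 10 other Adamts and Adamtsl genes and of 8 matrix substrates tested, 0 passed with either tool, with 0 and 3 at an unadjusted p under 0.05.

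The genes whose levels followed a member most closely were sought over the 30 libraries, after the mean of each time was subtracted. For *Mmp3*, these were *Rgs2* (Pearson r = 0.85), *Tmem41a* (0.82), *Ctps2*, *Fam19a1* and *Prdx5* (0.81 each). For *Mmp13*, they were *Saa3* (0.85), *Tpm4* (0.84), *Picalm* (0.83), *F13a1* and *Psma2* (0.81 each). For *Timp1*, they were *Tnc* (0.82), *Fstl1* (0.78), *Abi3bp*, *Cxcl16* (0.76 each) and *Plpp3* (0.75). Among the members, *Mmp3* had an r of 0.70 with *Mmp13*, 0.68 with *Adamts1* and 0.67 with *Timp1*, and *Mmp13* had an r of 0.70 with *Adamts1*. The libraries share their treatment groups and differ in depth and in the share of reads outside genes, so these values are a description.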

How the data were processed

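RNA of 30 libraries was sequenced from transcript 3′ ends. The authors trimmed the reads, aligned them with STAR 2.7.5c and counted them with HTSeq 1.99.2, and deposited raw read counts for 56941 Ensembl genes, with the strand setting not given in the sources used here. Reads outside genes (19.972%) stayed out of library sizes. Genes were filtered with filterByExpr (minimum count 10), which kept 12012 genes at 6 h and 12118 at 24 h, and tested with edgeR 4.0.16 (TMM, quasi-likelihood, 15 libraries per time, Benjamini-Hochberg, FDR below 0.1). Comparisons between times used all 30 libraries and 12790 genes. Intervals are approximate 95% intervals from the standard error and a normal distribution, so they are somewhat narrower than the F-test would give. The ratio of *Mmp3* to *Mmp13* was tested by exact permutation over libraries. The members and the gene lists were chosen with earlier results of these data known. Genes outside the members were named by list: those that passed the threshold in CBD against vehicle, otherwise the 2 with the highest mean level in each list, the neighbours of *Mmp3*, and the 5 most similar genes. Alternatives were another scaling (RLE), no filter, DESeq2 1.42.0, the compared groups alone, a covariate for reads that fell outside genes, and each library left out. The code was tested on simulated data. Some list genes are not reported here. Positions are those of GRCm38, while the counts used a later annotation.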

Additional observations from a re-analysis of the deposited data

How the results depend on the processing

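RLE scaling changed no count of members that passed. Without the filter on low counts, 4 members passed at 3 µM (0.364% of all genes) and 4 over the 4 doses (1.04% of all genes) at 6 h. At 24 h, 2 passed at 0.325 µM and 2 at 0.75 µM (0.311% of all genes each). In the difference between times, 2 passed (*Mmp3* and *Timp1*, against 0.316% of all genes). DESeq2 called 3 members at 3 µM (0.473% of the genes it tested) and 4 over the 4 doses (1.1% of the genes it tested) at 6 h. With the compared groups alone, the count at 6 h was 0 for 0.325 µM (0% of all genes), 1 for 0.75 µM (0.0178%) and 0 for 1.5 µM (0%). At 24 h it was 2 for 0.75 µM (0.903% of all genes). With a covariate for reads that fell outside genes, 3 passed at 0.325 µM (2.68% of all genes), 4 at 3 µM (0.658%) and 4 over the 4 doses (2.74%) at 6 h. At 24 h, 0 passed at 0.325 µM, 0.75 µM, 1.5 µM and over the 4 doses (0% of all genes each). Likewise, 0 passed among the doses (0.00825% of all genes) and at 3 µM against the lower doses (0.248%). Among the 3 lower doses alone at 24 h, a choice made after seeing the data, 0 passed (0.00825% of all genes). At 24 h, the covariate turned the log2 fold change over the 4 doses to 0.11 for *Mmp2*, 0.13 for *Mmp14* and 0.08 for *Timp1*, and that of *Mmp14* was 0 without the filter. The cause was not tested.

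With each library left out in turn, the count at 6 h was 0 to 2 at 0.325 µM, 1 to 3 at 0.75 µM, 0 to 3 at 1.5 µM, 0 to 4 at 3 µM and 1 to 3 over the 4 doses. At 24 h it was 0 to 2 at 0.325 µM, 0 to 2 at 0.75 µM, 0 to 1 at 1.5 µM, 0 to 1 over the 4 doses, 0 to 3 among the doses and 1 to 4 at 3 µM against the lower doses. It was 0 to 2 for the difference between times and 5 to 6 for vehicle between times. The share of all genes that passed in these fits is not reported here. Over the 4 doses at 6 h, the log2 fold change was −0.13 to 0.72 for *Mmp2*, −0.10 to 0.13 for *Timp2* and −0.30 to 0.06 for *Timp3*. At 24 h it was −0.29 to 0.16 for *Mmp2*, −0.11 to 0.10 for *Mmp14*, −0.05 to 0.21 for *Adamts7* and −0.03 to 0.12 for *Timp3*. The difference in the log2 ratio of *Mmp3* to *Mmp13* was −0.09 to 0.30 at 6 h and −0.60 to −0.43 at 24 h. No paired analysis was possible because the labels used to form the groups carry no replicate numbers, and the numbers given in library order pair nothing. *Mmp2* had 6 to 27 reads per library, which limits its precision.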

Other observations

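The genes named here outside the 9 members were chosen after their values were seen, because they passed the threshold in comparisons other than CBD against vehicle. Some genes of the plasminogen system, whose proteases activate Mmp precursors, differed between the times in vehicle-treated cells. Lower at 24 h than at 6 h were *Serpinb2* (log2 fold change −1.97, FDR = 0.00205), *Plaur* (−1.21, FDR = 0.00111), *Plau* (−1.09, FDR = 0.0333) and *Serpine2* (−1.02, FDR = 0.000783). Over the same interval, 3 of 6 other Mmp genes were higher, *Mmp23* (1.75), *Mmp11* (1.56) and *Mmp19* (1.26), as were 5 of 11 other Adamts and Adamtsl genes, where 26.7% of all genes tested passed and 12.5% were higher.

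At 3 µM against the lower doses at 24 h, where 10.5% of all genes passed, *Serpine2*, an inhibitor of plasminogen activators, rose by 0.98 on the log2 scale (FDR = 0.00249), *Furin*, which activates Mmp14, rose by 0.59 (FDR = 0.00608) and *Adam15* rose by 0.62 (FDR = 0.0113). *Mmp11* fell by 0.65 (FDR = 0.0277), *Adamtsl1* fell by 0.87 (FDR = 0.0416) and the integrin gene *Itgb1* fell by 0.42 (FDR = 0.0448).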
